A study of Homo sapiens with 12 samples.

Results

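TXNIP, its relatives of the arrestin-domain family, its binding partner thioredoxin and its regulator MondoA were followed across human bronchial epithelial cells that carried 3 different forms of EGFR at 2 oxygen levels. All probes annotated to TXNIP, ARRDC1, ARRDC2, ARRDC3, ARRDC4, TXN and MLXIP were taken, 12 of the 47323 probes on the array and 7 of its 20046 named genes. The genes were chosen from levels and differences seen on these same arrays, so their values are given below as a description. Of the 12 probes, 11 probes of 6 genes were detected on at least 2 of the 12 arrays, and the MLXIP probe was detected on 0 of 12.

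The cells were HBECs, cultured human bronchial epithelial cells, made to express L858R EGFR, E746-E750 EGFR or wild-type (WT) EGFR stably. L858R and E746-E750 are named for residues of the kinase domain, and both mutant forms are known from lung cancer. Each line was kept hypoxic at 0.1% oxygen for 24 h or aerobic at 21% oxygen, which made 6 groups of 2 arrays: L858R hypoxic, L858R aerobic, E746-E750 hypoxic, E746-E750 aerobic, WT hypoxic and WT aerobic. Every group shared a serum-free medium with EGF and pituitary extract, and each EGFR form was represented by 1 line, so line and EGFR form cannot be told apart. The labels do not say whether the 2 arrays of a group came from separate cultures, and the spread between them may be technical.

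TXNIP binds reduced thioredoxin through a disulfide and also works as an alpha-arrestin, an adaptor that carries ubiquitin ligases to membrane proteins such as the glucose transporters GLUT1 and GLUT3. Transcription of TXNIP and of its closest relative ARRDC4 is driven by MondoA, encoded by MLXIP, together with its partner Mlx, which bind paired E-box-like elements when glucose 6-phosphate is abundant. ARRDC1, ARRDC2 and ARRDC3 are also alpha-arrestins. ARRDC3 is known for its part in the trafficking of the beta-adrenergic receptor and of an integrin.

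The promoters of TXNIP and ARRDC4 are shown because the element that MondoA and Mlx bind has a defined shape, 2 copies of CACGNG with 5 bases between them. The RefSeq promoter table (GRCh38.p14) held all 7 genes in 10 start sites, and the 250 bases before each start were searched on both strands. Capitals mark CACGNG on either strand, and in ARRDC4 the second capital run holds overlapping matches. The TXNIP window lies at chr1:145996580-145996829 on the minus strand and the ARRDC4 window at chr15:97960453-97960702 on the plus strand.
TXNIP: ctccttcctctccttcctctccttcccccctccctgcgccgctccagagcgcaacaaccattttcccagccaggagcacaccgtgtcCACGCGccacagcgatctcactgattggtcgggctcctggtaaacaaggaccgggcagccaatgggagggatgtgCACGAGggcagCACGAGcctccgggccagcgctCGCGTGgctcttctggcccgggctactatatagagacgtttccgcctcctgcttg
ARRDC4: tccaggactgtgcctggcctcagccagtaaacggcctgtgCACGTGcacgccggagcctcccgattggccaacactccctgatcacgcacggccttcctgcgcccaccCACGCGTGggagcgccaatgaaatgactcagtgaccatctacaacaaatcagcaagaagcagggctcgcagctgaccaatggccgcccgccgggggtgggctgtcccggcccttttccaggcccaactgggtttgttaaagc

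The TXNIP window held such a pair, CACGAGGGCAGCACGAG, in the bases 88 to 72 before the start. That pair occurred in 23 of the 35116 promoter windows of the table (0.0655%). The second annotated start of TXNIP, with its window at chr1:145995745-145995994, held no CACGNG. The ARRDC4 window held CACGTG 210 bases before the start, which 6.34% of all windows hold, and no such pair. CACGNG by itself was found in 26.7% of all windows, and 5 of the 10 windows of these genes held none. The cores of hypoxia response elements are short: ACGTG, which overlaps CACGTG, was found in 18.5% of all windows and GCGTG, which overlaps CACGNG on the other strand, in 32.2%. TXNIP held GCGTG at 2 places and ARRDC4 at 4.

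Quality differed between arrays in a way that touches the results below. Replicates correlated at 0.983 to 0.997 over the 21261 kept probes in 5 groups and at 0.849 in the L858R hypoxic group, where replicate 2 had the fewest detected probes of the 12 arrays, 14159 against up to 18229. Differences of single genes with L858R hypoxia are therefore given with and without that array, other than those of second probes of list genes and of dim probes. Among 3213 genes with more than 1 kept probe, the log2 gap between probes of one gene shifted by over 1 from its aerobic value in 18.1% and 45.8% (L858R, hypoxic) and in 20.2% and 27.3% (E746-E750, hypoxic). The WT hypoxic pair showed this in 3.08% and 2.68% of genes, and no aerobic array in more than 0.0311%. All 12 arrays lay on 1 bead chip in the order of the groups, so chip position and group cannot be told apart. The 6 markers of basal epithelium with a probe, among them KRT5 and KRT14, were detected on 12 of 12 arrays. PTPRC and CD3E of leukocytes, VWF, CDH5 and KDR of endothelium, and COL3A1, DCN and LUM of mesenchyme were detected on 0. Other markers of these cell types were detected: CD68 and HLA-DRA of leukocytes on 12 arrays and LYZ on 7, COL1A2 of mesenchyme on 3, COL1A1 and PDGFRB on 2, and PECAM1 of endothelium on 1. Of ciliated and secretory cells, SCGB1A1 was detected on 2 arrays and FOXJ1 and SCGB3A1 on 0. The part of other cell types in the results was not tested. One EGFR probe (ILMN_1696521) read 8.02 to 8.28 on the mutant aerobic arrays and 9.22 and 9.34 on the WT aerobic arrays, and a second (ILMN_1798975) read 9.59 to 9.93 and 10.01 and 10.21. Whether these probes match the introduced EGFR was not tested.

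TXNIP was high in every group but one. Its level with hypoxia was above the aerobic level in both mutant lines and far below it in the WT line. On the normalized log2 scale, TXNIP read 12.37 and 12.91 on the L858R hypoxic arrays, against 11.66 and 11.93 on the L858R aerobic arrays. It read 12.46 and 12.50 on the E746-E750 hypoxic arrays, against 11.72 and 11.44 on the E746-E750 aerobic arrays. It read 9.28 and 9.99 on the WT hypoxic arrays, against 13.23 and 13.33 on the WT aerobic arrays. Hypoxic and aerobic arrays did not overlap in any of the 3 lines, and the WT hypoxic arrays were the lowest of the 12. In the scanner's own intensity, before any correction, the WT line gave 626 and 985 with hypoxia and 10069 and 10647 without.

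The hypoxic minus aerobic difference of TXNIP was 0.85 ± 0.26 in L858R cells, 0.90 ± 0.26 in E746-E750 cells and -3.65 ± 0.26 in WT cells (log2, standard error from limma, n = 2 arrays a group). The last is 12.5-fold lower. Without L858R hypoxic replicate 2 the L858R difference was 0.58 ± 0.24, still positive. Fewer cells that express a gene and less RNA per cell cannot be told apart in such pooled RNA. Sorted by mean, WT aerobic cells stood at 13.28, followed by L858R hypoxic at 12.64, E746-E750 hypoxic at 12.48, L858R aerobic at 11.80, E746-E750 aerobic at 11.58 and WT hypoxic at 9.63. The 2 mutant hypoxic groups overlapped, as did the 2 mutant aerobic groups, and no other neighbours in this order did.

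The comparisons across lines follow from the same levels and share arrays with those above. Aerobic TXNIP was 1.49 ± 0.26 lower on the log2 scale in L858R cells than in WT cells (difference -1.49) and 1.71 ± 0.26 lower in E746-E750 cells (difference -1.71). The response to hypoxia in a mutant line minus that in the WT line was 4.49 ± 0.36 for L858R, or 4.22 ± 0.31 without L858R hypoxic replicate 2, and 4.55 ± 0.36 for E746-E750. TXNIP has 1 probe on this array, so no second probe of the gene could be set beside it.

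**Figure D1:**
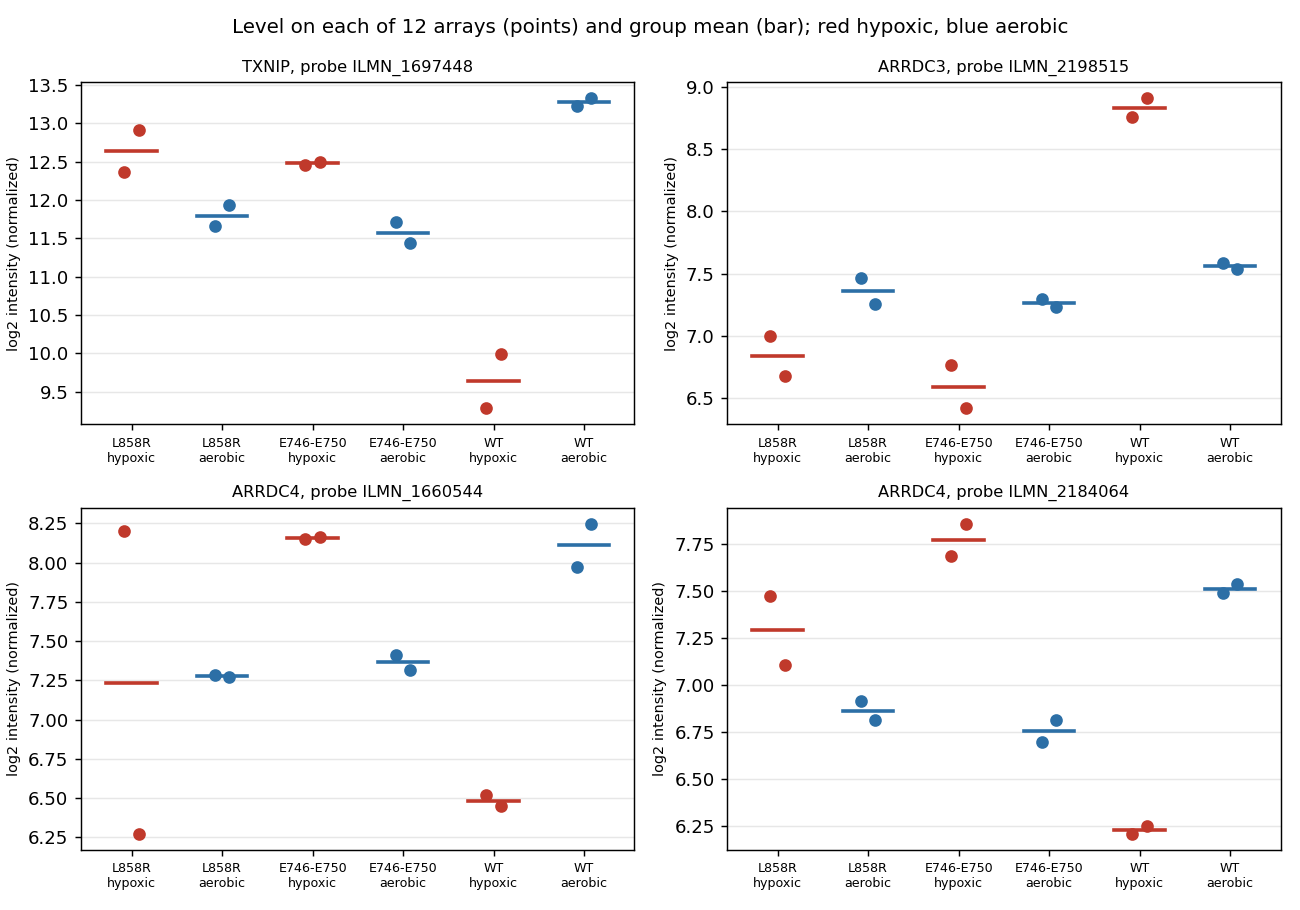
Normalized log2 intensity (y axis) on each of the 12 arrays (points) with the group mean (bar) for TXNIP, ARRDC3 and both probes of ARRDC4, hypoxic in red and aerobic in blue. TXNIP and both ARRDC4 probes are lowest in WT hypoxic cells, apart from 1 L858R hypoxic array at 6.27 with ARRDC4 probe ILMN_1660544, and ARRDC3 is highest there.

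ARRDC4, the nearest relative of TXNIP and also a regulator of glucose uptake, was ordered much like it. Its probe ILMN_2184064 read 7.48 and 7.11 on the L858R hypoxic arrays, against 6.91 and 6.81 on the L858R aerobic arrays. The same probe read 7.69 and 7.86 on the E746-E750 hypoxic arrays, against 6.70 and 6.81 on the aerobic ones. On the WT hypoxic arrays it read 6.21 and 6.25 and was not above background, against 7.49 and 7.54 on the WT aerobic arrays. No line had overlapping hypoxic and aerobic arrays with this probe. The differences were 0.43 ± 0.15 in L858R cells (0.61 ± 0.13 without replicate 2), 1.02 ± 0.15 in E746-E750 cells and -1.29 ± 0.15 in WT cells, where the level was at least 2.14-fold lower with hypoxia, a bound set by the dimmest detected probes of the 2 hypoxic arrays. The aerobic level was lower by 0.65 in L858R than in WT cells (difference -0.65) and by 0.76 in E746-E750 cells (difference -0.76).

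The second ARRDC4 probe, ILMN_1660544, depended on 1 array. It read 8.20 and 6.27 on the L858R hypoxic arrays, against 7.28 and 7.27 on the L858R aerobic arrays, and 6.27 was not above background on that array. It read 8.15 and 8.17 on the E746-E750 hypoxic arrays, against 7.41 and 7.31 on the E746-E750 aerobic arrays. Hypoxic WT cells gave 6.52 and 6.45, against 7.97 and 8.25 on the WT aerobic arrays. The L858R difference was -0.04 ± 0.49 with both hypoxic arrays and 0.92 ± 0.14 without replicate 2. The other differences of this probe were 0.80 ± 0.49 in E746-E750 cells and -1.62 ± 0.49 in WT cells, with the same signs as those of ILMN_2184064. That standard error comes from 1 spread shared by all 6 groups. The standard deviation of the replicates was 1.36 in the L858R hypoxic group and no more than 0.196 in any other group.

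ARRDC3 ran the opposite way. Its probe ILMN_2198515 read 7.0 and 6.68 on the L858R hypoxic arrays, against 7.47 and 7.26 on the L858R aerobic arrays. It read 6.77 and 6.42 on the E746-E750 hypoxic arrays, of which 6.42 was not above background, against 7.30 and 7.24 on the aerobic ones. It read 8.75 and 8.91 on the WT hypoxic arrays, against 7.59 and 7.54 on the WT aerobic arrays. The WT hypoxic arrays were thus the highest of the 12 and the 4 mutant hypoxic arrays the lowest, and the aerobic groups of the 3 lines lay within 0.30 of each other. The differences were -0.52 ± 0.17 in L858R cells (-0.36 ± 0.16 without replicate 2), -0.67 ± 0.17 in E746-E750 cells and 1.27 ± 0.17 in WT cells. The response in L858R cells minus that in WT cells was -1.79 ± 0.23 (-1.63 without replicate 2), and that in E746-E750 cells minus that in WT cells was -1.94 ± 0.23.

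The second ARRDC3 probe, ILMN_2198516, was dim and was detected on 2 arrays, the WT hypoxic ones, at 6.80 and 6.81, against 6.35 and 6.39 on the WT aerobic arrays. That is at least 1.31-fold higher. On the 4 mutant hypoxic arrays it stayed between 6.04 and 6.25, below background, and it gives no level there. ILMN_2198516 was kept only through the WT hypoxic arrays, so its standing highest there followed from the filter. It adds no support to ILMN_2198515, which alone measured the lower level in mutant hypoxic cells.

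**Figure D2:**
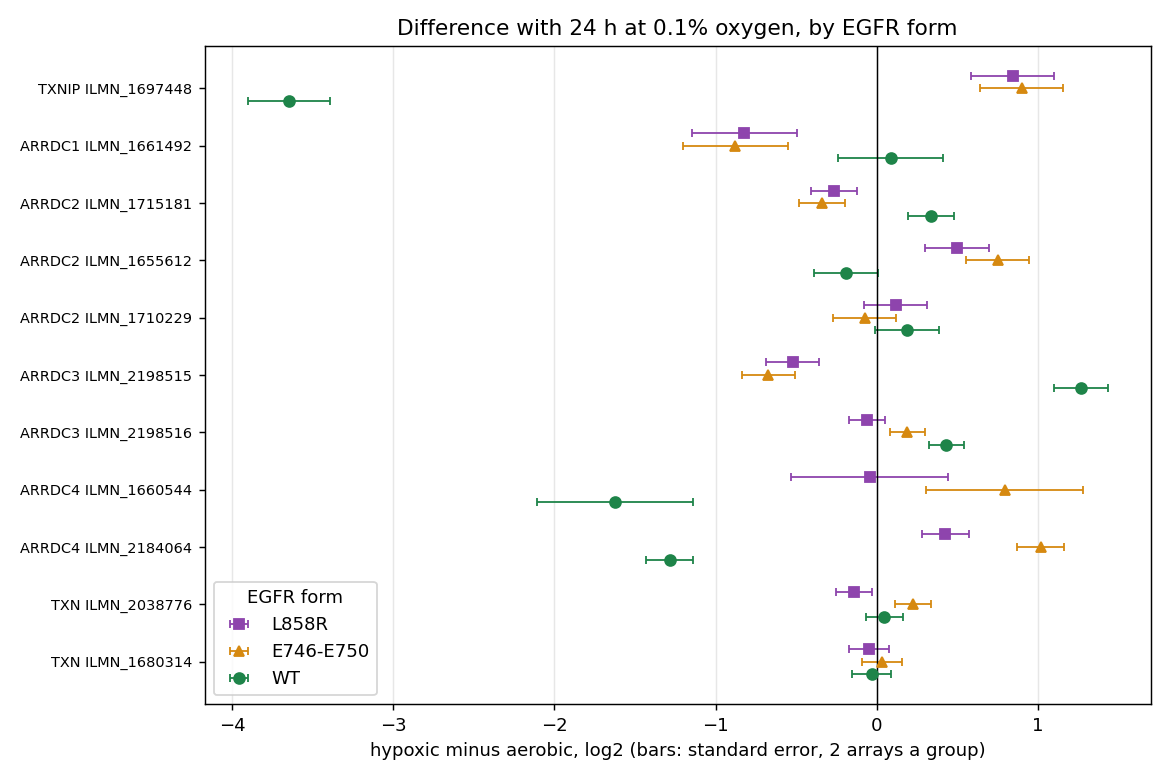
Hypoxic minus aerobic difference on the log2 scale (x axis) for each of the 11 kept probes (y axis) in L858R, E746-E750 and WT cells, with bars for the standard error from 2 arrays a group. TXNIP and ARRDC4 lie left of 0 in WT cells, ARRDC3 lies right of it, and the TXN probes lie near 0 in all 3 lines.

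ARRDC1, an alpha-arrestin that recruits the budding machinery to the plasma membrane, read lower on the mutant hypoxic arrays than on their aerobic arrays, but neither difference was called. It read 6.95 and 5.85 on the L858R hypoxic arrays, against 7.21 and 7.23 on the L858R aerobic arrays. Hypoxic E746-E750 cells gave 6.46 and 5.90, against 7.20 and 6.92 on the E746-E750 aerobic arrays. In WT cells it read 7.57 and 7.46 with hypoxia and 7.49 and 7.37 without, and these overlapped. The differences were -0.82 ± 0.33 in L858R cells, -0.88 ± 0.33 in E746-E750 cells and 0.09 ± 0.33 in WT cells, and the L858R difference was -0.27 ± 0.20 without replicate 2. Replicate 2 of each mutant hypoxic group was not above background, so a low level there is only a bound.

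The probes of ARRDC2, an alpha-arrestin that acts in receptor trafficking, did not move together. ILMN_1715181 differed by -0.27 ± 0.14 in L858R cells (-0.36 ± 0.15 without replicate 2), -0.34 ± 0.14 in E746-E750 cells and 0.34 ± 0.14 in WT cells. ILMN_1655612 differed by 0.50 ± 0.20 in L858R cells (0.80 ± 0.15 without replicate 2), 0.75 ± 0.20 in E746-E750 cells and -0.19 ± 0.20 in WT cells. Over all 12 arrays, only the E746-E750 difference of ILMN_1655612 was called (limma adjusted p = 0.0238). The signs were opposite in each line, and the gap between these probes moved by -1.22 and -0.44 in hypoxic L858R cells and by -0.91 and -0.76 in hypoxic E746-E750 cells. The third probe, ILMN_1710229, was detected on 2 arrays and stayed between 6.04 and 6.53 on all 12. No direction is given for ARRDC2 as a gene.

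TXN, the thioredoxin that TXNIP binds, was bright and nearly level. Probe ILMN_2038776 read 14.18 to 14.52 and probe ILMN_1680314 read 13.65 to 14.00 across the 12 arrays. Their hypoxic minus aerobic differences ran from -0.14 to 0.23, with standard errors of 0.11 and 0.12, and the L858R differences were -0.11 and -0.15 without replicate 2. The 2 probes moved apart by no more than 0.19 on any array. For MLXIP, the probe ILMN_1693987 read 5.82 to 6.13 and was not well above background on any array, so these data give no level for MondoA.

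**Figure D3:**
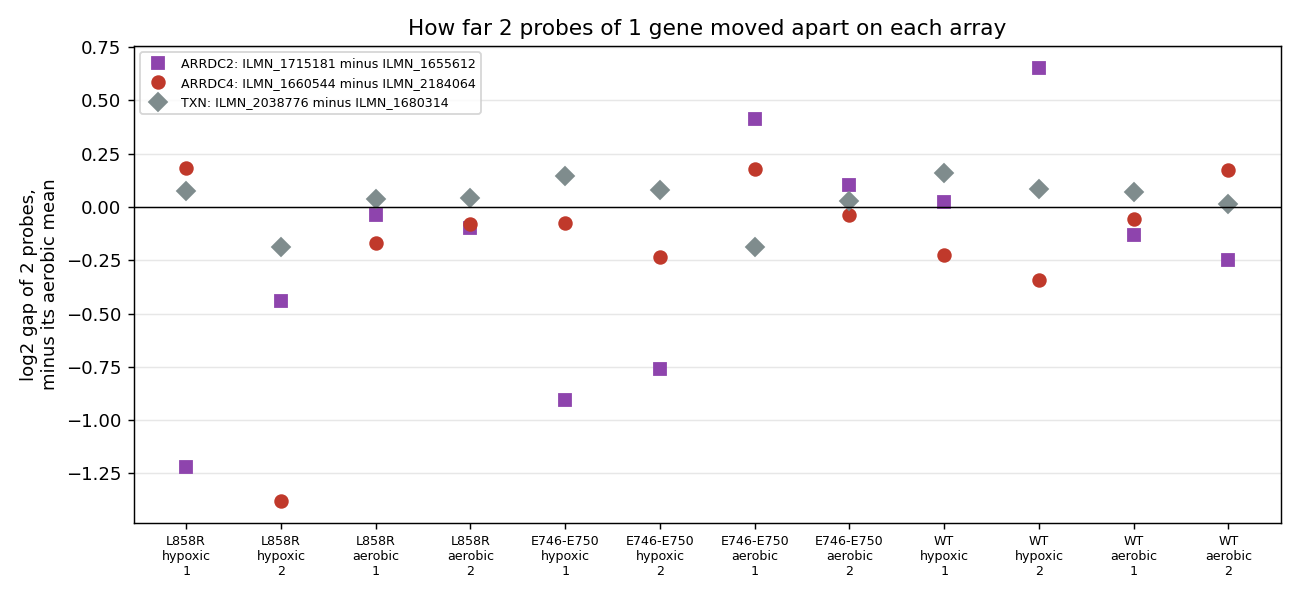
Gap between 2 probes of 1 gene on each array, minus the mean gap of the 6 aerobic arrays (y axis, log2), for ARRDC2, ARRDC4 and TXN. The gap of ARRDC2 lay between -1.22 and -0.44 on the 4 mutant hypoxic arrays and at 0.02 and 0.65 on the WT hypoxic arrays, and that of ARRDC4 lay at -1.38 on L858R hypoxic replicate 2, where ILMN_1660544 was not above background, while TXN stayed within 0.19 of 0.

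A fit over all 21261 kept probes, with limma's test called at an adjusted p under 0.05, placed these differences against the array as a whole. With hypoxia, 2 of the 11 probes were called in L858R cells against 27.3% of all probes, 4 in E746-E750 cells against 26.1%, and 4 in WT cells against 10.1%. The 4 in WT cells include ILMN_2198516 of ARRDC3, which was kept only through the WT hypoxic arrays. In aerobic cells, 0 of 11 were called for L858R minus WT, where limma called 0% of all probes, and 0 for E746-E750 minus WT, against 0.202%. At an unadjusted p under 0.05 these aerobic counts were 2 and 3 of the 11 probes, and 1022 and 1469 of all probes. For the response in the mutant line minus that in WT, 3 of 11 were called for L858R against 9.17% of all probes and 3 for E746-E750 against 9.41%. The 11 probes had median differences of -0.05, 0.19 and 0.05 in hypoxic L858R, E746-E750 and WT cells, and all probes had 0.05, 0.06 and -0.000604. Since the genes were chosen from these differences, nothing is read from the counts.

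A list of known hypoxia-induced genes was measured alongside. All 7 measured genes of 8 rose in L858R, in E746-E750 and in WT cells. Counts here and in the later lists use the brightest kept probe of each gene. Over all kept probes, 27.3%, 26.1% and 10.1% were called with hypoxia in L858R, E746-E750 and WT cells. VEGFA, the angiogenic growth factor, rose by 3.0 ± 0.31 in L858R cells (limma adjusted p = 0.000274, and 2.43 without replicate 2), by 2.94 ± 0.31 in E746-E750 cells (adjusted p = 0.000272) and by 1.86 ± 0.31 in WT cells (adjusted p = 0.00696). The same count of 7 was reached in each line without L858R hypoxic replicate 2.

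Glucose uptake and its first steps are restrained by TXNIP and share regulation by MondoA. Of 11 measured genes of 12, limma called 8 higher and 1 lower in L858R cells, 7 higher and 0 lower in E746-E750 cells, and 6 higher and 0 lower in WT cells. The list's medians were 0.90, 1.32 and 1.77. SLC2A3, which encodes the transporter GLUT3, read 12.49 and 12.73 on the L858R hypoxic arrays, against 9.02 and 9.23 on the L858R aerobic arrays. It read 12.58 and 12.63 on the E746-E750 hypoxic arrays, against 8.73 and 8.84 on the aerobic ones, and 12.75 and 12.75 on the WT hypoxic arrays, against 8.48 and 8.48. Its rises were 3.48 ± 0.13 in L858R cells (adjusted p = 1.61e-06, and 3.37 without replicate 2), 3.82 ± 0.13 in E746-E750 cells (adjusted p = 9.27e-07) and 4.27 ± 0.13 in WT cells (adjusted p = 3.25e-06).

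PFKFB3 and PFKFB4 make and break the activator of phosphofructokinase. PFKFB3 rose by 3.0 ± 0.15, 3.84 ± 0.15 and 3.31 ± 0.15 in L858R, E746-E750 and WT cells, and PFKFB4 by 2.75 ± 0.25, 2.93 ± 0.25 and 3.50 ± 0.25. Without L858R hypoxic replicate 2 the L858R rises were 2.89 for PFKFB3 and 2.29 for PFKFB4. A second PFKFB3 probe (ILMN_1660847) differed by 1.69, 2.44 and 2.84, each ± 0.80, and was not called. HK2, the inducible hexokinase that makes glucose 6-phosphate, rose by 2.33 ± 0.74 in L858R cells (adjusted p = 0.0485), 3.82 ± 0.74 in E746-E750 cells (adjusted p = 0.00615) and 3.79 ± 0.74 in WT cells (adjusted p = 0.0149). HK2 read 12.79 and 9.85 on the L858R hypoxic arrays, and without replicate 2 its rise there was 3.80 ± 0.22. The standard error of 0.74 comes from 1 spread shared by all 6 groups. HK2 read 12.48 and 11.87 on the E746-E750 hypoxic arrays and 12.47 and 12.40 on the WT hypoxic arrays. DDIT4, an inhibitor of mTOR signalling, fell by 0.75 ± 0.14 in L858R cells (adjusted p = 0.00527), or by 0.71 without replicate 2. For HK1, a hexokinase named after its values were seen, the probes disagreed: the brighter one rose by 0.73 in L858R cells (0.47 without replicate 2) and ILMN_1761829 fell by 0.72 ± 0.16 there and by 0.87 ± 0.16 in E746-E750 cells.

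The partners of MondoA and the wider Mlx and Max network changed with hypoxia gene by gene. All 10 genes were measured, and limma called 4 higher and 1 lower in L858R cells, 2 higher and 2 lower in E746-E750 cells, and 2 higher and 1 lower in WT cells. MYC, which competes with the MXD proteins for Max, fell by 2.82 ± 0.22 in L858R cells (adjusted p = 6.11e-05, with a difference of -2.45 without replicate 2), by 1.84 ± 0.22 in E746-E750 cells (adjusted p = 0.000472) and by 1.85 ± 0.22 in WT cells (adjusted p = 0.0013). A second MYC probe (ILMN_2110908) was called lower in both mutant lines and not in WT cells, at -1.33 ± 0.40. MAX was not called with its brightest probe or with ILMN_1802457. Its probe ILMN_2363426 was called lower, at -1.01 ± 0.13 in L858R, -0.94 ± 0.13 in E746-E750 and -0.53 ± 0.13 in WT cells. MAX probe ILMN_1704236 was called lower at -0.65 ± 0.13 in L858R and -0.63 ± 0.13 in E746-E750 cells. It was not called in WT cells, at -0.48 ± 0.13. MXD1, a repressor that pairs with Max or Mlx, read 10.51 and 10.79 on the L858R hypoxic arrays, against 7.91 and 7.91 on the L858R aerobic arrays. It read 10.42 and 10.70 on the E746-E750 hypoxic arrays, against 7.44 and 7.58, and 9.84 and 9.39 on the WT hypoxic arrays, against 8.27 and 8.40.

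MXD1 rose in all 3 lines, and its rise was larger by 1.46 ± 0.26 in L858R than in WT cells (limma adjusted p = 0.0113, and 1.32 without replicate 2) and by 1.78 ± 0.26 in E746-E750 than in WT cells (adjusted p = 0.00431). MXD4, another such repressor, fell by 1.04 ± 0.22 in E746-E750 cells (adjusted p = 0.00917), and its difference in E746-E750 cells minus that in WT cells was -1.84 ± 0.31 (adjusted p = 0.00856). MXI1 rose by 1.25 ± 0.15 in L858R (1.37 without replicate 2), 1.95 ± 0.15 in E746-E750 and 1.88 ± 0.15 in WT cells with its brighter probe. A second MXI1 probe (ILMN_1793915) differed by 0.00 ± 0.18, -0.17 ± 0.18 and 2.17 ± 0.18, so the probes disagreed in the mutant lines. MLXIPL, the MondoA paralog ChREBP, rose in L858R cells to at least 1.56 times an aerobic level that was not well above background (adjusted p = 0.0419). That bound uses both arrays: the MLXIPL difference was 0.88 with both and 0.40 without replicate 2 on the log2 scale, and a second probe (ILMN_1722073) differed by 0.22 ± 0.15 and was not called. MLX itself was not called, with differences of -0.86, -1.03 and -0.40 in L858R, E746-E750 and WT cells, and of -0.24 in L858R cells without replicate 2.

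In the thioredoxin system, 14 of 17 genes were measured, and limma called 2 higher and 1 lower in L858R cells, 2 higher and 0 lower in E746-E750 cells and 2 higher and 0 lower in WT cells. TXNRD1, the reductase that recharges thioredoxin, rose by 1.55 ± 0.13 in L858R cells (adjusted p = 8.74e-05, and 1.53 without replicate 2), 1.10 ± 0.13 in E746-E750 cells (adjusted p = 0.000433) and 1.65 ± 0.13 in WT cells (adjusted p = 0.000192) with its brighter probe. A second TXNRD1 probe (ILMN_2324421) differed by -1.55 ± 0.16, -2.25 ± 0.16 and 1.59 ± 0.16, of opposite sign in both mutant lines. GLRX, a glutaredoxin that reduces glutathionylated proteins, rose by 1.41 ± 0.17 (1.19 without replicate 2), 1.53 ± 0.17 and 1.63 ± 0.17 in L858R, E746-E750 and WT cells. PRDX1, a peroxiredoxin that thioredoxin reduces, fell by 1.57 ± 0.29 in L858R cells (adjusted p = 0.00493), or by 1.02 ± 0.12 without replicate 2. A second PRDX1 probe (ILMN_2366388) fell by 0.82 ± 0.13 in L858R cells (adjusted p = 0.00251) and by 0.42 ± 0.13 in E746-E750 cells (adjusted p = 0.0461). A second GLRX2 probe (ILMN_2258268) was called lower, at -1.74, -1.79 and -1.63 in L858R, E746-E750 and WT cells, each ± 0.17. The brighter GLRX2 probe was not called in any line.

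The ubiquitin ligases that bind PPxY motifs, together with known regulators of TXNIP stability, gave 2 calls higher of 11 measured genes in L858R cells and 0 in E746-E750 and in WT cells by limma, where 2 and 3 genes had an unadjusted p under 0.05. Both calls were ligases: HECW2 rose to at least 2.12 times an aerobic level that was not well above background (adjusted p = 0.00452), a bound that uses both arrays, and WWP1 by 1.23 ± 0.29 (adjusted p = 0.0152). Without L858R hypoxic replicate 2, HECW2 rose by 1.01 ± 0.12, against 1.52 with it, and WWP1 by 0.69 ± 0.15. A second NEDD4 probe (ILMN_1807881) was called lower, at -0.54 ± 0.14 in L858R and -0.58 ± 0.14 in E746-E750 cells. A second AKT1 probe (ILMN_2410909) was called higher in E746-E750 cells, at 1.11 ± 0.28, and another (ILMN_1748661) was not, at 0.02 ± 0.16. The brightest probes of NEDD4 and AKT1 were not called in any line. Of 5 measured genes of 9 in the list of other arrestin-fold genes and arrestin cargo, VPS26B, a retromer subunit, fell by 1.19 ± 0.36 in L858R cells (adjusted p = 0.0407), or by 0.51 ± 0.15 without replicate 2. The other 2 lines had 0 calls in that list, and 0 genes in E746-E750 and 1 in WT cells had an unadjusted p under 0.05. Between aerobic cells, limma called 0 of the 58 genes of the 6 lists for L858R minus WT and 0 for E746-E750 minus WT, where 8 and 7 had an unadjusted p under 0.05.

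Most of these list counts grew without L858R hypoxic replicate 2, whose spread enters every test. The calls over all kept probes grew as well, in each of the lines. That fit leaves a single array in the L858R hypoxic group, so nothing is read from the growth.

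Genes whose level followed TXNIP over the 12 arrays were found among 4382 genes whose group means spanned at least 1 on the log2 scale. The 12 arrays share a chip and form 6 pairs of replicates, so the correlations (Pearson) describe these arrays only. The highest were 0.941 for ANTXR2, an anthrax toxin receptor that binds collagen and laminin, and 0.941 for IL1RL1, the receptor for interleukin 33. HSPA9, a mitochondrial chaperone, followed at 0.920, SRPRB, a subunit of the signal recognition particle receptor, at 0.916, CPSF2, a subunit of the cleavage and polyadenylation complex, at 0.906, and ZMPSTE24, a protease that matures lamin A, at 0.90. IL1RL1 was not above background on the WT hypoxic arrays, at 6.12 and 6.16.

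Unnamed loci and reading frames were passed over at both ends. At the low end this left TBC1D3C, which ranked 4380 of the 4382 genes, at -0.884, BZW1, a regulator of translation start, at -0.878, H19, an imprinted noncoding RNA, at -0.869, and FABP5, a fatty acid binding protein, at -0.857. The aerobic levels of H19, 6.10 to 6.28, were not above background, nor were its L858R hypoxic levels, 6.11 and 5.86. TBC1D3C read 7.63 and 6.85 on the WT hypoxic arrays and 6.04 to 6.43 on all others, at or near background. Both correlations therefore rest largely on the WT hypoxic arrays. Those arrays also stood apart for other named genes: BZW1 read 8.42 and 8.12 there, against 6.33 to 7.37 on all others. SRPRB read 8.33 and 8.66 there, against 10.09 to 10.73. Correlations without the WT hypoxic arrays were not computed. TBC1D3C is one of several near-identical copies, so its probe may read others. Within the family, ARRDC4 correlated at 0.858 and 0.639 with its 2 probes, ARRDC3 at -0.762 with its brighter probe, and TXN at 0.038 and 0.372. Over the 8 aerobic and WT hypoxic arrays, the 2 ARRDC4 probes correlated at 0.970 and 0.971 with TXNIP and ARRDC3 at -0.747.

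**Figure D4:**
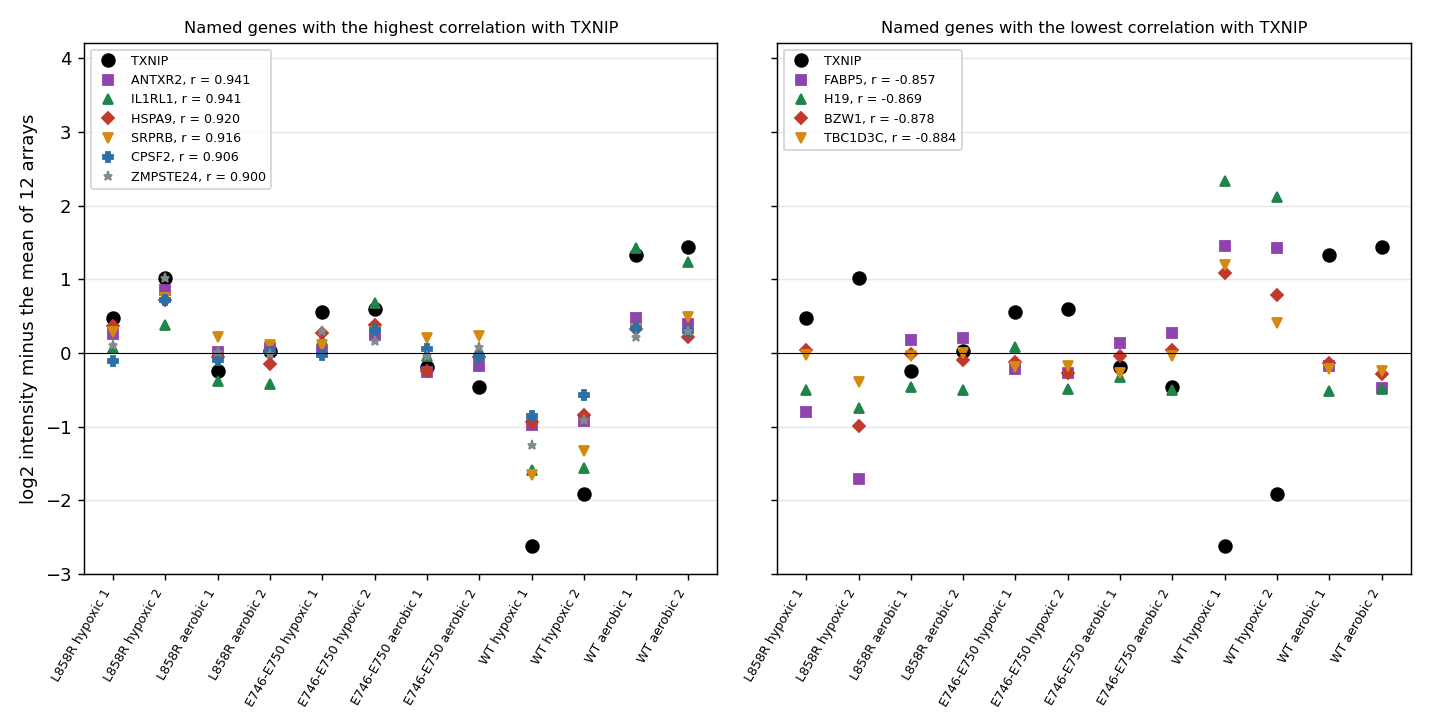
Log2 intensity minus the mean of the 12 arrays (y axis) for TXNIP and the 6 named genes with the highest (left) and the 4 with the lowest (right) Pearson correlation with it, unnamed loci passed over. All genes of the left panel are lowest in WT hypoxic cells, while the 4 of the right panel are highest there.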

How the data were processed

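RNA of 12 samples was read on Illumina bead arrays as biotinylated cRNA, per the labels' protocols. The authors deposited raw, uncorrected linear intensity without detection p-values for 47323 probes. They also deposited log2 values whose columns share their quantiles and have a median of 3.11; their background treatment is unknown, and they served as an alternative. All columns were matched to samples by label.

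In limma 3.58.1 (R 4.3.3), normexp with an offset of 50 removed background from the raw intensities, and quantile normalization of their log2 followed. A probe was detected on an array above percentile 99 of its noise peak, mirrored at its mode (density bandwidth 0.02 log2), and kept when detected on at least 2 of 12 arrays. lmFit and eBayes fitted 6 group means with 6 residual degrees of freedom. Each of 7 contrasts was tested two-sided, Benjamini-Hochberg adjustment ran over its 21261 kept probes, and an adjusted p under 0.05 was a call. The scripts were tested on simulated data. The precision is limited by 2 arrays a group.

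Gene names came from the platform annotation. Of the probes, 30121 had a gene, 8 of these had several, and 17202 had none. A list gene is represented by its brightest kept probe. Named were all member probes, up to 4 called genes per list and contrast by size, the 6 highest and 4 lowest correlations with TXNIP (unnamed loci, reading frames and antisense or small nucleolar RNAs passed over), and EGFR. Second probes of some list genes were added where they disagreed in sign or call, after their values were seen. The members and lists were chosen with earlier results of these data known. The labels give replicate numbers no shared source. Same-numbered arrays correlated in their deviations at 0.758 between the 2 mutant hypoxic groups and at -0.174 to 0.163 in the other pairs of the 15, and 3 in all were above 0.1; since not every pair was, the fit was not paired. Alternatives changed background correction, normalization, filter, variance model, weights, arrays and pairing.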

Additional observations from a re-analysis of the deposited data

Results flagged for a closer look

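The response of TXNIP to hypoxia differed between lines: the difference in L858R cells minus that in WT cells was 4.49 ± 0.36 (limma adjusted p = 0.000257) and that in E746-E750 cells minus that in WT cells was 4.55 ± 0.36 (adjusted p = 0.000223), with every mutant hypoxic array above and every WT hypoxic array below its aerobic group. ARRDC4 (probe ILMN_2184064) differed the same way, by 1.71 ± 0.21 for L858R and 2.30 ± 0.21 for E746-E750, and ARRDC3 (probe ILMN_2198515) the opposite way, by -1.79 ± 0.23 and -1.94 ± 0.23. These genes were chosen for such patterns, so the interaction terms describe them and add no evidence. The WT hypoxic arrays, on which TXNIP and this ARRDC4 probe were lowest and ARRDC3 highest, had 3.08% and 2.68% of genes with probes that moved apart, against 18.1% to 45.8% on the mutant hypoxic arrays. The part of those mutant array differences in the results was not tested.

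Among the 58 measured genes of the lists, the response in a mutant line also differed from that in WT cells for 7 genes by their brightest probe. For L858R minus WT, limma called 7 of the 58, against 9.17% of all kept probes. For E746-E750 minus WT it called 2 of the 58, against 9.41%. Nothing is read from these counts. MXD1 differed by 1.46 ± 0.26 in L858R and 1.78 ± 0.26 in E746-E750 cells, and MXD4 by -1.36 ± 0.31 and -1.84 ± 0.31. For L858R minus WT the test also passed for PRDX1 (-1.87 ± 0.41, and with a second probe, ILMN_2366388, also for E746-E750 minus WT at -0.77 ± 0.19), DDIT4 (-0.858 ± 0.197), SLC2A3 (-0.787 ± 0.181), HECW2 (1.60 ± 0.39) and ANKRD37, a hypoxia-induced gene (-2.55 ± 0.54, or -1.80 without L858R hypoxic replicate 2). Without L858R hypoxic replicate 2 the L858R values were -1.32 for PRDX1, -1.67 for MXD4, 1.32 for MXD1, -0.824 for DDIT4, -0.904 for SLC2A3 and 1.08 for HECW2. Several calls for L858R minus WT were lost under other settings: 8 of 25 alternatives called SLC2A3, 11 of 24 HECW2, 13 of 25 each of PRDX1, DDIT4 and MXD4, 18 of 25 ANKRD37 and 20 of 25 MXD1. Leaving out 1 array in turn kept the call in 2 of 12 fits each for PRDX1, SLC2A3 and HECW2. For E746-E750 minus WT, MXD1 and MXD4 were called in 25 of 25. Second probes passed the test for list genes whose brightest probe did not. For L858R and E746-E750 these were TXNRD1 (ILMN_2324421) at -3.145 and -3.836, each ± 0.225, and MXI1 (ILMN_1793915) at -2.163 and -2.333, each ± 0.258. HK1 (ILMN_1761829) gave -1.195 and -1.347, each ± 0.227. VEGFA (ILMN_1803882) passed for E746-E750 only, at 1.05 ± 0.244. Whether L858R and E746-E750 cells differed from each other was not tested.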

How the results depend on the processing

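The TXNIP difference with hypoxia in WT cells was called in 26 of 26 alternatives, at -4.0 to -3.29. Its sign was the same in 25 of 25 for both mutant lines, but its call was not: it passed in 11 for L858R and in 15 for E746-E750. For L858R it was 0.874 with the authors' values, 0.846 with no filter, with only the arrays compared or with array weights, and 0.576 without replicate 2 of both mutant hypoxic groups, none of them called. For E746-E750 it was 0.929 with the authors' values and 0.902 with no filter, neither called. Leaving out 1 array in turn gave 0.576 to 1.12 in L858R cells (called in 3 of 12), 0.763 to 1.04 in E746-E750 cells (called in 4 of 12) and -4.0 to -3.29 in WT cells (called in 12 of 12). The contrasts of the responses were called in 25 of 25 for TXNIP, at 4.14 to 4.85 for L858R and 4.2 to 5.11 for E746-E750. The replicate block left the TXNIP differences at 0.846, 0.902 and -3.65 and changed no call of TXNIP with hypoxia. ARRDC4 probe ILMN_1660544 turned from -0.04 to 0.92 in L858R cells without L858R hypoxic replicate 2, and likewise without replicate 2 of both mutant hypoxic groups; without replicate 1 it was -1.01. The aerobic difference of TXNIP from WT was called in 6 of 26 alternatives for L858R and 10 of 26 for E746-E750, including all that left out an L858R hypoxic array. Median centring moved the median of all probes to 0.145 for E746-E750 hypoxia, -0.168 for aerobic E746-E750 minus WT and 0.281 for its response minus that of WT, and relative to those medians TXNIP stood at 1.21, -1.79 and 4.83. The count of called probes ran from 51 to 14299 for L858R hypoxia, 2872 to 11438 for E746-E750, 726 to 8370 for WT, 0 to 2451 and 0 to 3436 for the aerobic contrasts, and 701 to 12312 and 696 to 7531 for the responses, against 5798, 5551, 2157, 0, 43, 1949 and 2000 in the values reported. With median centring 38.6%, 67.7% and 25.0% of the calls with hypoxia were higher in L858R, E746-E750 and WT cells, against 48.7%, 49.7% and 44.2%. Over all members' values, TXNIP included, 115 gained a call and 61 lost one, and 205 values of list genes lost one.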
